A study of Mus musculus with 15 samples.

Results

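The comparison described here set *Tbr1* K228E/K228E embryos, which carry the K228E substitution on both alleles of *Tbr1*, against *Tbr1* +/K228E embryos, which carry it on 1 allele and a wild-type sequence on the other. The members were the 5 embryos labelled Tbr1 homo and the 5 labelled Tbr1 hetero, together 10 of the 15 embryos of the series, and they were described across 16507 of 19475 deposited genes, those with a mean of at least 5 over all 15 embryos. The remaining 5 embryos are WT, and their values are given only as a level beside the others. Every embryo was of the C57BL/6J strain at E16.5, with 3 females and 2 males per genotype, and the sequenced libraries were made from total RNA. The mutant allele came from 1 line of knock-in mice, with the mutation in exon 1 and loxP sites in the construct, and a neomycin cassette was removed from it by a cross with protamine-Cre mice. Both mutant genotypes carry this allele. The tissue is forebrain in the study's text and whole brain in the series description.

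TBR1 is a T-box transcription factor that activates some genes and represses others. It is made by early-born glutamatergic neurons of the cerebral cortex, above all those of layer 6 and the subplate, and by Cajal-Retzius cells at the cortical surface. It is best known for setting layer 6 identity and for driving *Reln*, and mice without it have a disordered cortex. The comparison of homozygous with heterozygous embryos addresses gene dosage, that is, which transcripts differ when the remaining wild-type allele is also replaced.

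The altered codon lies in exon 1 on the plus strand, inside the coding sequence, at position 61805389 to 61805391 of chromosome 2 (GRCm38). It is shown because it is the base of the genotype labels. In the reference sequence below, from chr2:61805362-61805397, the capitals mark the lysine codon that K228E replaces with one for glutamate.

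Tbr1 K228E codon: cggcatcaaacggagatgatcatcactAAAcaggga

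A few libraries stood apart in the tissue that they held, and these values bear on the results. Summed over 13 marker genes of the meninges, the membranes that cover the brain, normalized read counts were 1705 in homozygous embryo 4 and 2034 in homozygous embryo 3, against 11613 to 33694 in the other 3 homozygous embryos and 7580 to 28482 in the heterozygous embryos. Summed over *Hox* genes, which mark hindbrain and spinal cord, they were 3972 in heterozygous embryo 1, 8 to 14 in the other 4 heterozygous embryos, and 11 to 577 in the homozygous embryos. Forebrain markers such as *Emx1* and *Emx2* were present in every embryo and their sum ranged from 18506 to 35682 over the 10 mutant embryos, and midbrain markers such as *En1* and *Pax7* were present as well, with a sum of 880 in heterozygous embryo 2 and 1215 in homozygous embryo 3, against 2470 to 4571 in the other 8 mutant embryos. Sums of normalized counts per embryo were 30.5 to 31.8 M. The most frequent low value of each embryo, taken as that of a single read, gave a rough 26.3 to 38.3 M reads (M, megareads). The values are not whole multiples of a read, so this depth is only a guide. The embryos are separate animals, so p-values measure the spread between embryos. The labels do not give litters, so which embryos were littermates is not known, and a part of litter was not tested. In bulk tissue, fewer cells of a type and less RNA per cell cannot be told apart.

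**Figure D1:**
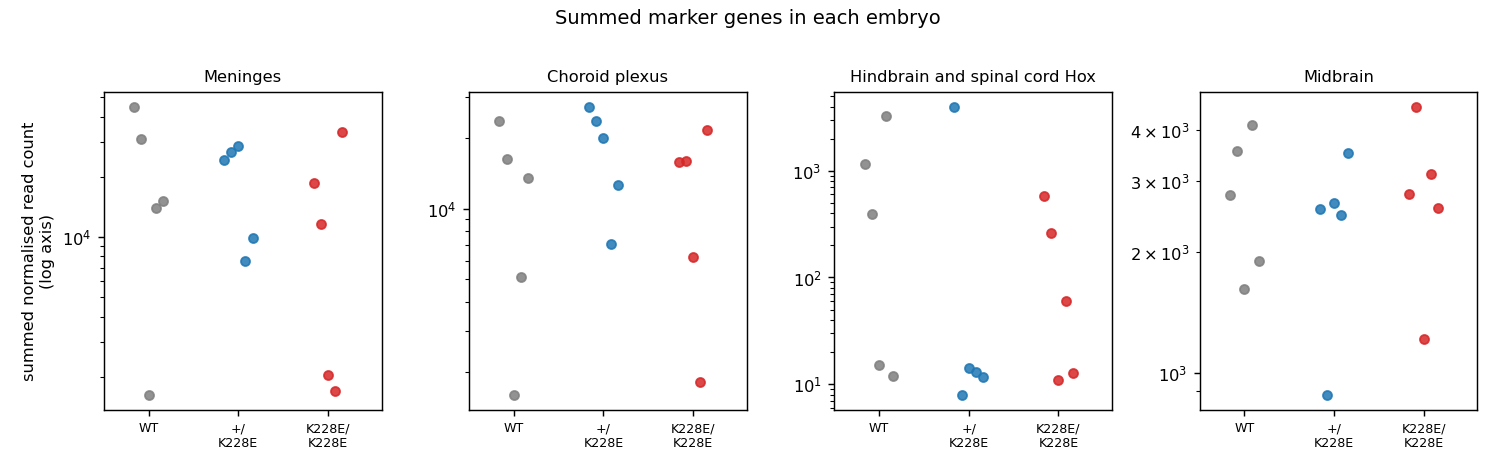
Summed normalized read counts (log axis) of 4 marker lists in each embryo, by genotype, with 1 point per embryo. Homozygous embryos 3 and 4 were low for meninges (2034 and 1705), and heterozygous embryo 1 was high for *Hox* genes (3972).

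*Tbr1* itself, on chromosome 2 at 61802930 to 61814114, was measured first. Its normalized read counts were 4738, 8543, 6337, 6743, and 4985 in heterozygous embryos 1 to 5 and 11530, 7148, 16015, 10671, and 11467 in homozygous embryos 1 to 5. Homozygous embryo 2 lay below the highest heterozygous embryo, and the other 4 homozygous embryos lay above all heterozygous ones. The mean was 6269 ± 1532 (SD, n = 5) in heterozygous and 11366 ± 3160 (SD, n = 5) in homozygous embryos, a 1.81-fold difference of means, and WT embryos had 2097 to 4871. The log2 fold change was 0.85 (95% confidence interval 0.35 to 1.34). When *Tbr1* was tested alone, an exact permutation test (two-sided, 5 embryos in each arm) gave p = 0.0159, and 0.00794 is the smallest p that the design allows. In the limma fit across all genes it did not pass the threshold (unadjusted p = 0.00231, adjusted p = 0.614). Homozygous embryo 2 also had the lowest forebrain sum and the highest midbrain sum of the 10 embryos (18506 and 4571), and homozygous embryo 3, the highest for *Tbr1*, had the highest forebrain sum (35682). The part of tissue composition in the *Tbr1* difference was not tested.

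Across all genes, 13 passed an adjusted p of 0.05 (limma with Benjamini-Hochberg adjustment), or 0.0788% of those tested. Of these, 4 were higher in homozygous embryos (0.0242%), namely *Fgf10*, *Vegfd*, *Cabp7*, and *Tank*. The other 9 were lower (0.0545%), namely *Reln*, *Adamts3*, *Wnt7b*, *Mc4r*, *Samd3*, *Sybu*, *Prex1*, *Rbm14*, and *Glt28d2*. In each of the 13 genes the 5 homozygous embryos did not overlap the 5 heterozygous ones. Such a lack of overlap was seen in 145 genes, 81 higher (0.491%) and 64 lower (0.388%) in homozygous embryos. With 5 embryos in each arm, it arises by chance, in either direction, with a probability of 0.00794 per gene. The share seen is near this, so a lack of overlap alone, as given for genes below, does not set a gene apart. An unadjusted p under 0.05 was reached by 283 genes that were higher (1.71%) and 261 that were lower (1.58%), together fewer than the 825 that make up 5% of the tested genes. The shares over all tested genes given here also stand beside the counts of each gene list below. Most genes differed little: 94.8% lay within 0.5 of 0 on the log2 scale, and the median standard error was 0.093. Omitting any 1 of the 10 mutant embryos left 6 to 8 genes past the threshold, and *Reln*, *Wnt7b*, *Mc4r*, *Samd3*, *Fgf10*, and *Cabp7* passed in all 10 of these fits. With the 2 mutant genotypes fitted alone, without WT embryos, *Samd3*, *Vegfd*, and *Tank* lost the threshold at the same fold changes (adjusted p = 0.0509, 0.0710, and 0.0812). With the low-meninges embryos (WT 3, homozygous 3, and homozygous 4) omitted together, no gene passed (smallest adjusted p = 0.0558, 492 genes at an unadjusted p under 0.05). That fit held 3 embryos fewer, and the log2 fold changes of the 13 genes in it were 85.0% to 114% of those with all embryos. No gene passed either in the 3 females per genotype alone (smallest adjusted p = 0.410, 828 genes) or in the 2 males alone (smallest adjusted p = 0.0507, 412 genes).

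**Figure D2:**
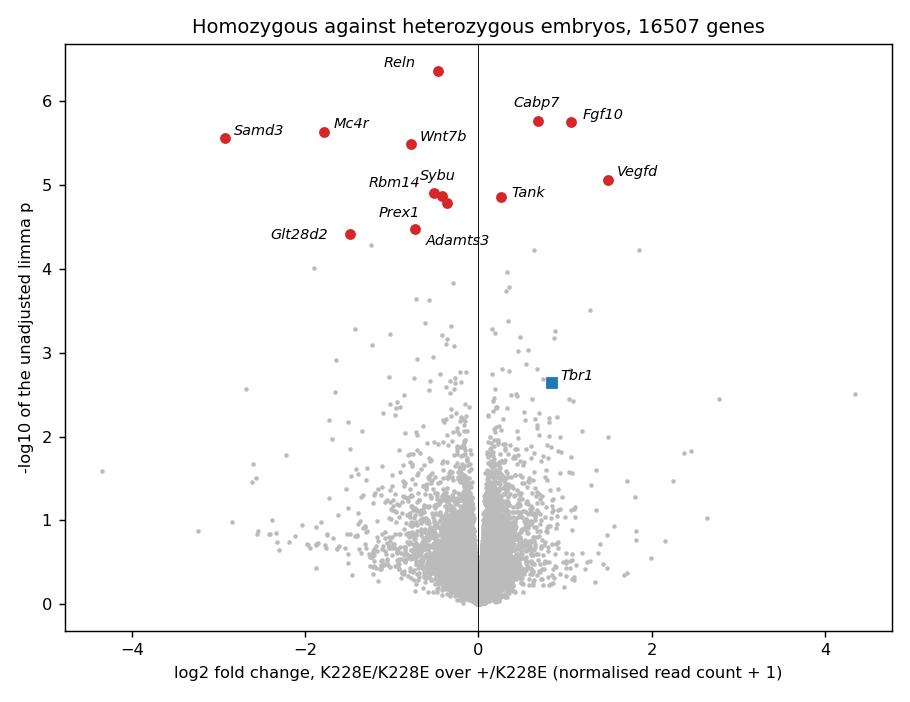
Log2 fold change of homozygous over heterozygous embryos (x axis) against -log10 of the unadjusted limma p (y axis) for 16507 genes. Red points are the 13 genes past the adjusted threshold, 9 on the lower and 4 on the higher side, and the blue square is *Tbr1*.

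Genes of the reelin pathway were described first, since *Reln* is a known target of TBR1. *Reln*, which encodes a large secreted glycoprotein that guides the placement of migrating cortical neurons, had 9189, 10206, 10478, 10082, and 10432 normalized read counts in the heterozygous and 6444, 8400.4, 7161, 7318, and 7213 in the homozygous embryos. The highest homozygous embryo lay below the lowest heterozygous one, and WT embryos had 10551 to 10906. *Reln* fell by 0.47 on the log2 scale (standard error 0.056, adjusted p = 0.00707), from a mean of 10077 ± 522 to 7307 ± 702 (SD, n = 5 each). *Adamts3*, which encodes a secreted metalloprotease that cleaves reelin, had 1186, 1438, 1260, 1579, and 1310 in the heterozygous and 712, 835, 938, 847, and 754 in the homozygous embryos. Again the genotypes did not overlap, and WT embryos spanned 1201 to 2082. *Adamts3* fell by 0.73 on the log2 scale (standard error 0.13, adjusted p = 0.0460), but it passed in none of the 10 fits without 1 mutant embryo, nor with sex or a cell cycle score as a covariate (adjusted p = 0.0629 and 0.0915).

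Of the 14 genes of the reelin pathway, these were the only 2 past the threshold, both lower. Over all tested genes, 0.0545% were lower past it. The list had a median log2 fold change of -0.03, beside 0.0004 over all tested genes. *Vldlr*, a reelin receptor, had a log2 fold change of 0.18 (unadjusted p = 0.028) and *Lrpap1*, which encodes a chaperone of such receptors, one of -0.14 (unadjusted p = 0.0017), and neither passed after adjustment. The receptor gene *Lrp8* was at -0.07 and the adaptor gene *Dab1* at -0.003, both with an unadjusted p above 0.05. *Reln* also stands on the list of Cajal-Retzius markers, where 1 of 10 genes passed. There *Ndnf* and *Trp73* had log2 fold changes of -1.02 and -0.75 (adjusted p = 0.303 and 0.593), while *Lhx1*, *Lhx5*, and *Calb2* were at 0.10, -0.06, and -0.17.

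**Figure D3:**
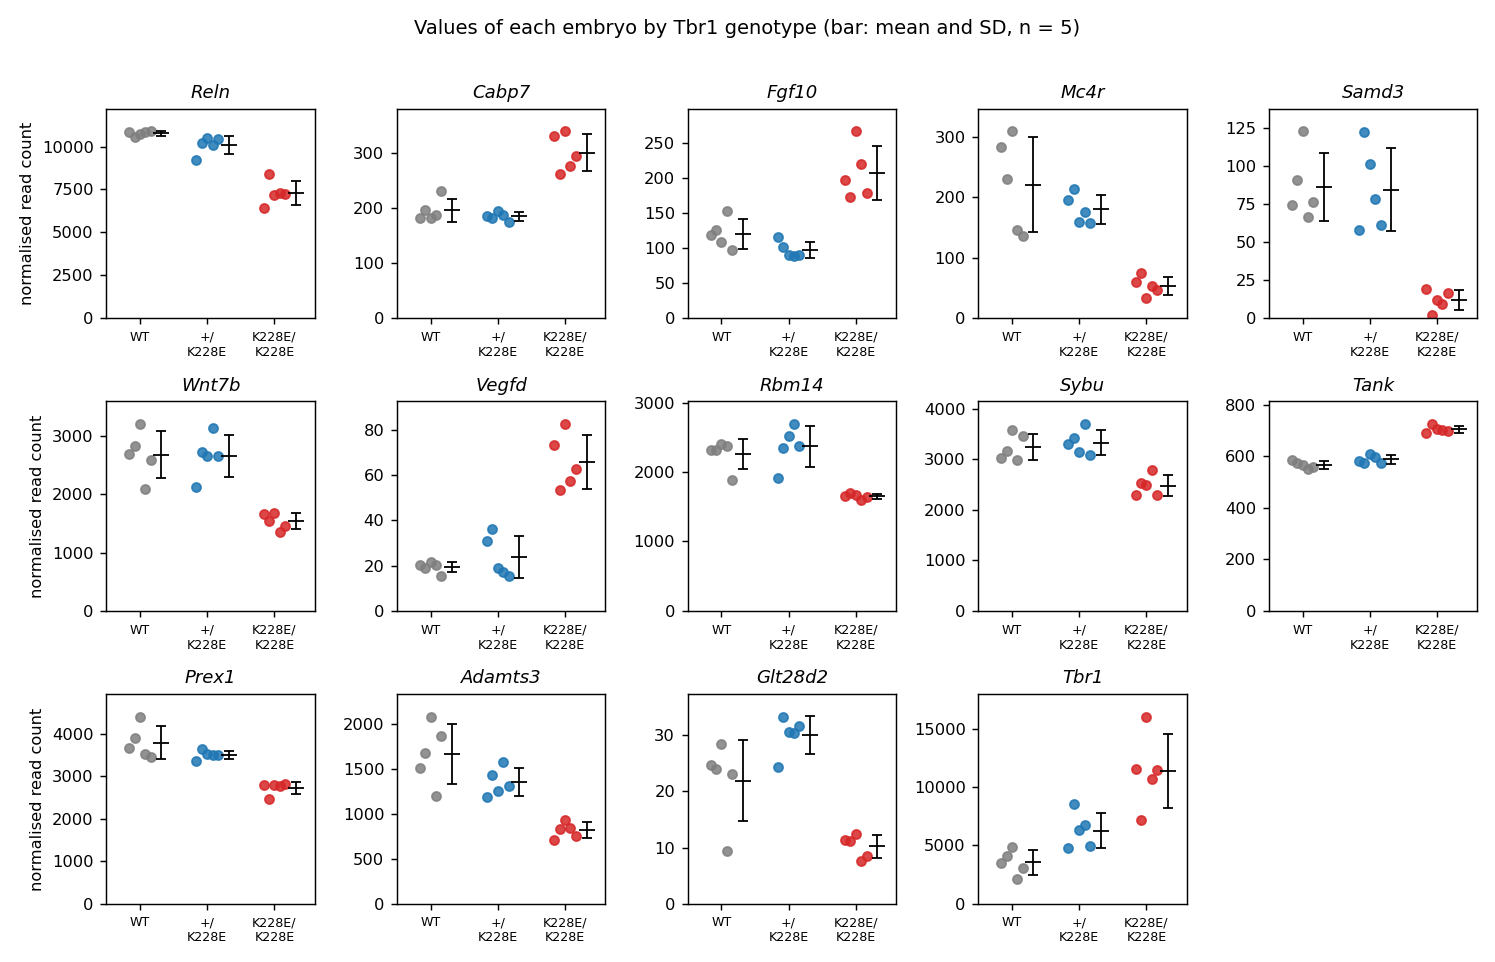
Normalized read counts (y axes from 0) of each embryo by genotype for the 13 genes past the threshold and *Tbr1*, with 1 point per embryo and a bar for the mean and SD (n = 5). In the 13 genes, all homozygous embryos lay on 1 side of all heterozygous embryos, and in *Tbr1* 1 homozygous embryo (7148) lay below the highest heterozygous one (8543).

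The largest log2 fold change among the 13 genes was that of *Samd3*, which encodes a protein with a sterile alpha motif domain. Its normalized read counts were 58.0, 122, 101, 78.3, and 61.2 in the heterozygous embryos and 18.9, 2.10, 12.0, 9.53, and 16.2 in the homozygous ones. The heterozygous values were within the range of WT embryos (66.3 to 123) apart from embryos 1 and 5, which were slightly lower, and the homozygous values were all far below. *Samd3* fell by 2.93 on the log2 scale (standard error 0.41, adjusted p = 0.00897), a 7.18-fold difference of means, and without WT embryos in the fit it was just outside the threshold.

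The 250 bases upstream of *Samd3* are shown because, of the 10 genes past the threshold with a RefSeq promoter entry, it was the only one with the full T-box half-site GGTGTGA or its reverse complement TCACACC in this window. The sequence is from RefSeq on GRCm38.p6, chr10:26229457-26229706, plus strand, and the capitals mark the match.

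Samd3 upstream: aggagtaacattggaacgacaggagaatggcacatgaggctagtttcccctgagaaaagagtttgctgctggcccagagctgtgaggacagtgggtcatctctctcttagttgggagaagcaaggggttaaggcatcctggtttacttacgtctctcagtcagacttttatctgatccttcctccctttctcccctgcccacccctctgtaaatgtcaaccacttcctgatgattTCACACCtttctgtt

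On either strand, GGTGTGA was present in 3.33% of 32851 such upstream windows, and in any window of 3.84% of their 27025 genes. The shorter GGTGTG, which the longer motif contains, was upstream of 2 of the 10 genes, *Samd3* and *Cabp7*, and of 18.3% of all genes. GTGTGA, which is contained as well, was upstream of *Samd3* alone among the 10, and of 13.9% of all genes. A match describes these letters only.

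*Mc4r*, on chromosome 18, encodes a melanocortin receptor that is known for its part in food intake. It had 195, 215, 159, 175, and 158 normalized read counts in the heterozygous and 59.6, 74.6, 33.0, 53.7, and 46.1 in the homozygous embryos. The highest homozygous embryo was below all heterozygous embryos and below all WT embryos, which had 137 to 310. *Mc4r* fell by 1.78 on the log2 scale (standard error 0.24, adjusted p = 0.00897), a 3.38-fold difference of means. It was the only one of 19 melanocortin and hypothalamus genes past the threshold. The related receptor gene *Mc3r* had a log2 fold change of 0.39, the accessory protein gene *Mrap2* one of 0.09, and the ligand precursor gene *Pomc* one of -0.15, all with an unadjusted p above 0.05.

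*Wnt7b*, which encodes a secreted ligand of the Wnt family, had 2129, 2731, 2648, 3135, and 2656 normalized read counts in the heterozygous embryos. The homozygous embryos had 1669, 1538, 1684, 1353, and 1461, all below the lowest heterozygous embryo. Heterozygous and WT embryos had nearly the same mean (2660 and 2676). *Wnt7b* fell by 0.78 on the log2 scale (standard error 0.11, adjusted p = 0.00897), by 0.61 in females and by 1.04 in males. Among the 43 genes of the Wnt pathway it was the only one past the threshold and the only one with an unadjusted p under 0.05, and the list had a median of -0.06. The closely related ligand gene *Wnt7a* was at 0.04 on the log2 scale, the coreceptor genes *Adgra2* and *Reck*, whose products receive WNT7 ligands, at -0.37 and -0.08, and the feedback target *Axin2* at 0.0006. By qRT-PCR in homozygous brains, the study reports higher *Tbr1* and lower *Reln*. It states that the other genes could not be verified in this way, although their directions were similar. Its qRT-PCR primers included those for *Wnt7b* and *Adamts3*.

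*Fgf10* and *Vegfd*, both genes of secreted growth factors, were higher in homozygous embryos. *Fgf10* had 116, 101, 90.5, 88.0, and 89.8 normalized read counts in the heterozygous and 197, 173, 266, 219, and 178 in the homozygous embryos. The homozygous embryos also exceeded all WT embryos (96.2 to 152). *Fgf10* rose by 1.07 on the log2 scale (standard error 0.14, adjusted p = 0.00897), or 2.13-fold in means. *Vegfd*, on the X chromosome, had 30.9, 36.1, 18.8, 17.1, and 15.4 in the heterozygous and 73.3, 53.4, 82.7, 57.6, and 62.5 in the homozygous embryos. The higher 2 heterozygous values came from embryos 1 and 2, and WT embryos had 15.5 to 21.7. *Vegfd* rose by 1.498 on the log2 scale (standard error 0.23, adjusted p = 0.0202), or 2.78-fold in means, and it passed in 4 of the 10 fits without 1 mutant embryo. These were the only 2 of 16 FGF and VEGF genes past the threshold, and the median of the list was -0.07. Over all tested genes, 0.0242% were higher past the threshold. The receptor genes *Fgfr2*, for FGF10, and *Flt4*, for VEGFD, were at -0.06 and -0.23, and the family members *Vegfa* and *Vegfc* at -0.02 and -0.17, with an unadjusted p above 0.05.

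*Cabp7*, which encodes a calcium-binding protein related to calmodulin, had 186, 182, 195, 188, and 174 normalized read counts in the heterozygous and 331, 262, 340, 275, and 294 in the homozygous embryos. Each homozygous embryo was above all heterozygous and all WT embryos (181 to 231). *Cabp7* rose by 0.69 on the log2 scale (standard error 0.092, adjusted p = 0.00897), or 1.62-fold in means. Its span overlaps *Zmat5* on the opposite strand, which was at 0.08, and reads of a shared stretch cannot be told apart in these libraries. Of 24 calcium and calmodulin genes it was the only one past the threshold. *Nrgn*, which encodes the calmodulin-binding protein neurogranin, had a log2 fold change of 0.87 and *Cacna2d1*, for an auxiliary calcium channel subunit, one of 0.33, both without overlap of the genotypes (adjusted p = 0.310 and 0.101). The *Nrgn* values were 373, 536, 458, 668, and 426 in the heterozygous and 682, 849, 1277, 892, and 804 in the homozygous embryos. The list had a median of 0.06, with 19 of 24 genes above 0.

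The 5 other genes past the threshold differed less or were less abundant. *Sybu*, for syntabulin, an adaptor that links cargo to a kinesin motor in axons, had 3072 to 3697 normalized read counts in the heterozygous and 2287 to 2777 in the homozygous embryos, and it fell by 0.43 on the log2 scale (adjusted p = 0.0227). *Prex1*, for an exchange factor that activates Rac, had 3369 to 3641 and 2474 to 2814, and it fell by 0.36 (adjusted p = 0.0242). The homozygous values of *Prex1* lay close together at 2773 to 2814 apart from embryo 2. It was the only one of 11 Rac regulators past the threshold, and the related *Prex2* was at 0.22.

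*Rbm14*, for an RNA-binding protein of paraspeckles, had 1913 to 2695 in the heterozygous and 1595 to 1692 in the homozygous embryos, and it fell by 0.51 (adjusted p = 0.0227). Its span is shared with *Gm21992* on the same strand, which was at -0.13, so reads of their common exons may be divided between them and the value is uncertain. *Glt28d2*, for a protein with a glycosyltransferase domain, had 24.3 to 33.3 and 7.53 to 12.4, and it fell by 1.48 (adjusted p = 0.0483). It shares its span with *Gm37240*, at -0.61, and is uncertain in the same way. *Reln* and *Sybu* also overlap tested pseudogenes on the opposite strand, *Gm16111* at -0.27 and *A930017M01Rik* at -0.14. Without 1 mutant embryo, *Sybu* passed in 2 of 10 fits, *Rbm14* in 1, and *Prex1* and *Glt28d2* in none. With scores of *Hox* and meninges genes as covariates, *Sybu*, *Prex1*, and *Rbm14* still passed and *Glt28d2* did not.

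*Tank*, for an adaptor of TRAF proteins in innate immune signaling, starts 224 kb before *Tbr1* on the same chromosome. Its normalized read counts were 581, 574, 610.2, 599, and 574 in the heterozygous and 690, 725, 706, 700.0, and 697 in the homozygous embryos. The spread within a genotype was small (SD 16.2 and 13.4), and WT embryos had 549 to 587. *Tank* rose by 0.26 on the log2 scale (standard error 0.041, adjusted p = 0.0227), although it passed in none of the 10 fits without 1 mutant embryo and lost the threshold with the *Hox* and meninges scores (adjusted p = 0.0563), where its log2 fold change was again 0.26.

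Tested genes that start within 1.5 Mb of *Tbr1* were listed by position, since the knock-in lies there. Of 11 such genes apart from *Tbr1*, 10 were higher in homozygous embryos by sign, 1 was past the threshold, and 5 had an unadjusted p under 0.05, and the median log2 fold change was 0.26. Over all tested genes, 0.0788% were past the threshold. With an unadjusted p under 0.05, 1.71% of all tested genes were higher and 1.58% were lower. *Slc4a10*, for a sodium bicarbonate transporter of neurons, starts 244 kb beyond *Tbr1*. It had 1837, 1804, 1700, 1689, and 1688 normalized read counts in the heterozygous and 2153, 2911, 3071, 2764, and 2772 in the homozygous embryos. The genotypes did not overlap, and the log2 fold change was 0.64 (adjusted p = 0.0614). *Gcg*, *Dpp4*, and *Ifih1* were at 0.96, 0.82, and 0.72 with overlapping embryos (adjusted p = 0.996 each). *Dpp4* was at 0.07 in females and 1.95 in males, and at 0.54 without homozygous embryo 5. *Ifih1* was at 0.21 in females and 1.49 in males. *Psmd14*, for a proteasome subunit, ends 2.55 kb before *Tbr1* starts and was at 0.04 (95% confidence interval -0.09 to 0.16). The only gene below 0 was *Pla2r1*, at -0.60 with an interval of -2.05 to 0.85. Because these genes share the *Tbr1* region, an effect of the mutant protein and one of the altered locus cannot be told apart here.

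**Figure D4:**
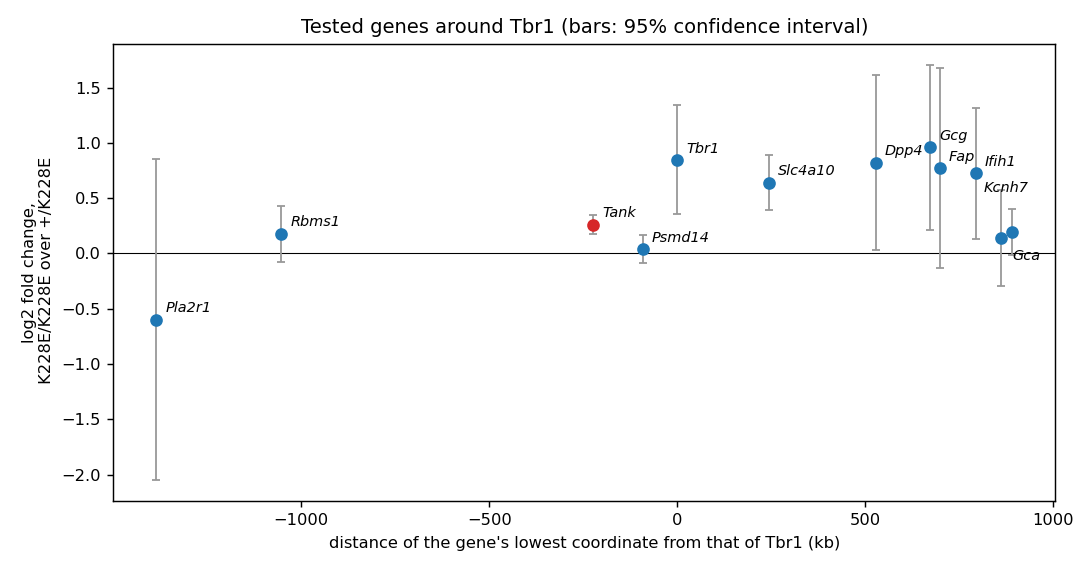
Log2 fold change of homozygous over heterozygous embryos (y axis, bars for the 95% confidence interval) of *Tbr1* and the 11 tested genes that start within 1.5 Mb, by distance in kb (x axis). *Tank* (red) is past the adjusted threshold, and all but *Pla2r1* lie above 0.

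The list of TBR1 target genes and partners held 15 genes, of which 3 were past the threshold, *Reln*, *Wnt7b*, and *Mc4r*, all lower. Over all tested genes, 0.0545% were lower past the threshold. Some of these genes were named by the study from these embryos, so the list is not independent evidence of a direction. *Bcl6*, which encodes a transcriptional repressor of the developing cortex, had 232, 383, 265, 284, and 237 normalized read counts in the heterozygous and 150, 90.8, 116, 116, and 113 in the homozygous embryos. The genotypes did not overlap, and the log2 fold change of -1.24 was just outside the threshold (standard error 0.22, adjusted p = 0.0614). *Nfe2l3*, for a transcription factor, was at -0.57 (adjusted p = 0.168), also without overlap. On the same list, *Nrgn* was at 0.87 without overlap and *Tbr1* itself at 0.85 with overlap (limma adjusted p = 0.310 and 0.614). At an unadjusted p under 0.05, 2 of the 15 genes were higher and 6 were lower, beside 1.71% and 1.58% of all tested genes. The partner genes *Cask* and *Tspyl2*, the target *Auts2*, and the glutamate receptor genes *Grin1* and *Grin2b* lay between -0.02 and 0.10, and the list had a median of -0.02.

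Markers of cortical layers did not pass. Of 11 genes of layer 6 corticothalamic neurons, including *Tbr1*, 4 had an unadjusted p under 0.05, 2 in each direction. Over all tested genes, 1.71% were higher and 1.58% lower at that p. *Crym*, for a thyroid hormone-binding protein, had a log2 fold change of 0.67 without overlap (620 to 847 in the heterozygous and 942 to 1432 in the homozygous embryos, adjusted p = 0.550). The corepressor gene *Tle4* was at -0.27 without overlap (adjusted p = 0.593), and the neurotensin receptor gene *Ntsr1* at -0.37 with overlap (adjusted p = 0.996). *Foxp2*, another gene of layer 6, was at -0.02. Among 11 upper layer and callosal genes, 8 were below 0 and 3 above. At an unadjusted p under 0.05, 2 of them were lower and none higher. These were *Rorb*, at -0.42 without overlap (adjusted p = 0.303), and *Plxnd1*, at -0.29 with overlap (adjusted p = 0.996). *Cux1* and *Cux2* were at -0.01 and 0.09. None of 9 subplate and 9 layer 5 genes that were tested passed, with medians of 0.02 for both lists. The 9 genes of intermediate progenitors, among them *Eomes* at -0.22, were all below 0 with a median of -0.18, and the 20 cell cycle genes were all below 0 with a median of -0.20, but no gene of either list had an unadjusted p under 0.05.

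Genes of secreted and extracellular matrix proteins were taken as the study lists them from these embryos, so this list is not independent evidence of its direction. Of its 19 genes, 3 were past the threshold, *Reln*, *Wnt7b*, and *Adamts3*, all lower, 5 were lower without overlap, and 13 were lower with an unadjusted p under 0.05. Over all tested genes, these shares were 0.0545%, 0.388%, and 1.58%. All 19 were below 0, with a median of -0.28. *Ccbe1*, which encodes a secreted cofactor of ADAMTS3, had 345, 538, 400, 487, and 321 normalized read counts in the heterozygous and 146, 63.8, 289, 200, and 150 in the homozygous embryos. The log2 fold change was -1.43 without overlap (adjusted p = 0.300). *Gdf10*, for a growth factor of the TGF-beta family, was at -0.64 without overlap (adjusted p = 0.996). *Sorl1* and *Cemip* were at -0.28 and -0.52 with overlap (adjusted p = 0.354 and 0.437). The 12 perineural matrix genes, of which *Vcan* and *Tnr* also stand on the extracellular list, had a median of 0.02 and none past the threshold. Meningeal markers were lower in the homozygous embryos in 13 of 13 genes by sign, with a median of -1.25 and no unadjusted p under 0.05, and their sums overlapped widely (1705 to 33694 against 7580 to 28482). With scores of *Hox* and meninges genes as covariates *Reln*, *Wnt7b*, and *Adamts3* each passed. With WT 3, homozygous 3, and homozygous 4 omitted together, each of them was outside the threshold (limma adjusted p = 0.0558). The part of the meninges in the extracellular list was not tested.

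**Figure D5:**
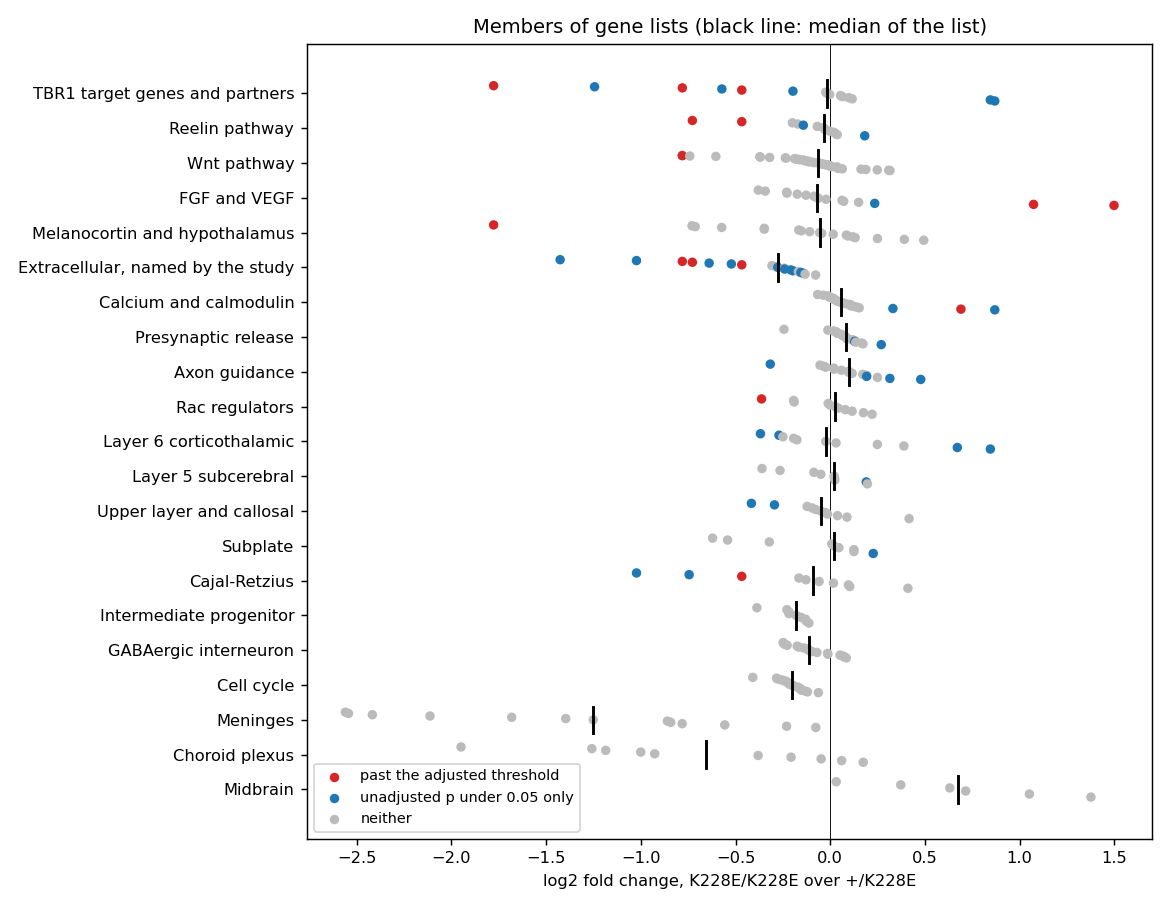
Log2 fold change of homozygous over heterozygous embryos (x axis) of the tested members of 21 gene lists (y axis), with a black line at the median of each list. Red points are past the adjusted threshold and blue points reached only an unadjusted p under 0.05. Most list medians lie near 0, whereas meninges (-1.25), choroid plexus (-0.65), and midbrain (0.67) lie far from it with no member past either threshold. For midbrain, heterozygous embryo 2 had a sum of 880 against 2470 to 3513 in the other heterozygous embryos.

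Several lists of neuronal genes held no gene past the threshold. Of 16 axon guidance genes, *Flrt3*, for an adhesion molecule that binds UNC5 receptors, was at 0.31 and *Unc5b*, for such a receptor, at -0.32, both without overlap (adjusted p = 0.143 and 0.291). *Flrt3* had 958 to 1184 normalized read counts in the heterozygous and 1235 to 1531 in the homozygous embryos, and *Unc5b* had 762 to 783 and 543 to 727. Of 20 presynaptic release genes, 18 were above 0 with a median of 0.08, and *Syt4*, for a synaptotagmin, was at 0.27 without overlap (adjusted p = 0.550). Glutamate receptor genes (10) and GABA receptor genes (13) had medians of 0.08 and 0.10, and none of them reached an unadjusted p under 0.05. *Sowahb*, for an ankyrin-repeat protein, was just outside the threshold among low genes, with 3.23 to 7.37 in the heterozygous and 12.2 to 35.4 in the homozygous embryos and a log2 fold change of 1.86 (adjusted p = 0.0614). *Runx1t1*, for a transcriptional corepressor, was at 0.35 without overlap (adjusted p = 0.136). *Trhr*, for the receptor of thyrotropin-releasing hormone, was at 0.88 with overlap (adjusted p = 0.303).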

How the data were processed

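RNA-Seq libraries were made by the authors from total RNA with a TruSeq RNA v2 kit, which does not mark strand, so reads from overlapping antisense genes cannot be told apart. According to the study's methods and the submitters' processing notes, transcript abundance was estimated with Salmon 0.11.2 on GRCm38 with GC bias correction, imported to genes with tximport in R 3.5.3, and divided by DESeq2 1.22.2 size factors. What the authors deposited is thus a normalized signal per gene and embryo, called normalized read counts here, and not whole counts. Since the import corrects for transcript length, the values are no whole multiples of a read, and count models were not used. The depth is approximate, and low values such as those of *Samd3*, *Glt28d2*, and *Sowahb* are the least precise.

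The labels give each embryo its genotype, number, and sex. GENCODE M21 gave symbols and positions for 19452 of the 19475 genes. The 16507 genes whose mean was at least 5 were log2-transformed with a pseudocount of 1 and fitted by limma 3.58.1 (R 4.3.3, trended empirical Bayes), with 1 mean per genotype over the 15 embryos, and p-values were adjusted by Benjamini-Hochberg over all tested genes at a threshold of 0.05. A log2 fold change on this scale understates the change of low genes. The test was checked on simulated data. For *Tbr1* alone an exact permutation test, two-sided, was added. Named genes were those past the threshold, the 10 with the smallest p in each direction, the 5 with the largest change in each direction among non-overlapping genes whose mean was 50 or more, neighbours of *Tbr1* within 1.5 Mb, genes that the study names, and the leading members of gene lists. A few list members that are named beside them with an unadjusted p above 0.05 were chosen after their values were seen. Members, lists, and tests were chosen with earlier results of these data known. Alternatives were other pseudocounts, filters, scalings, and covariates, 1 sex, a replicate block, and omission of embryos. Omission of embryos with low meninges or high *Hox* values was added after the data were seen.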

Additional observations from a re-analysis of the deposited data

Results flagged for a closer look

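Of 34 groups of 5 embryos that were examined for a value far from the others, 2 held one, and chance alone marks about 1 in 20 groups. *Prex1* had 2474 normalized read counts in homozygous embryo 2, against 2773 to 2814 in the other 4 homozygous embryos. The lower value lies further from the heterozygous embryos (3369 to 3641) than the rest. The summed *Hox* genes of hindbrain and spinal cord had 3972 normalized read counts in heterozygous embryo 1, against 8 to 14 in the other 4 heterozygous embryos. Without this embryo 8 genes were past the threshold, against 13 with it, and the calls that were lost were those of *Adamts3*, *Prex1*, *Sybu*, *Tank*, and *Glt28d2*. No gene past the adjusted threshold was found for a difference of the homozygous against heterozygous contrast between females and males by limma (smallest adjusted p = 0.999, with 554 genes at an unadjusted p under 0.05).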

How the results depend on the processing

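The count of 13 genes past the threshold stayed within 11 to 19 under other pseudocounts (12 and 14), filters (12 and 11), scalings (14 and 13), and covariates (12 to 19), with robust variances (13), with the 2 genotypes alone (13, of which 10 shared, without *Samd3*, *Vegfd*, and *Tank*), and with an empirical null (18, all 13 included). It was 2 with the replicate number as a block (replicate block, *Reln* and *Mc4r*), 0 in females only, 0 in males only, and 0 without WT 3, homozygous 3, and homozygous 4 together, where the number of embryos also fell. For these 3 settings 828, 412, and 492 genes had an unadjusted limma p under 0.05. Without 1 embryo at a time the count was 6 to 17, that is, 6 to 8 without a mutant embryo and 11 to 17 without a WT embryo, and 17 were counted without WT 3. Without WT 4 and heterozygous 1 it was 15. Same-numbered heterozygous and homozygous embryos did not deviate together (r of 0.26, -0.23, -0.19, 0.35, and -0.13 for numbers 1 to 5), and not every embryo correlated best with its own number, so the numbers were not taken as pairs. For *Tbr1*, omission of 1 mutant embryo gave a log2 fold change of 0.71 to 1.00. With a cell cycle score as a covariate *Tbr1* and *Bcl6* passed while *Adamts3*, *Rbm14*, and *Glt28d2* did not, and with a *Hox* score *Bcl6*, *Dmrt2*, *Flrt3*, *Kcng1*, *Nfe2l3*, and *Sowahb* were added to the 13. The sign turned in 7 cases of single genes, all far from the threshold: *Crx* in males only (0.0306), *Pla2r1* in males only (1.06), *Gca* without WT 3, homozygous 3, and homozygous 4 (-0.12), and *Pde3b* in males only (-0.0512), without heterozygous 1 (-0.0863), without homozygous 1 (-0.003), and without WT 4 and heterozygous 1 (-0.0863). Without 1 embryo at a time *Pde3b* ranged from -0.0863 to 0.0535. The causes were not tested.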

Other observations

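Other cell types of the embryonic brain held no gene past the threshold in homozygous against heterozygous embryos. Of 15 astrocyte genes, 9 were below 0 with a median of -0.07. The lowest was the connexin gene *Gjb6* at -2.33, with overlap of the genotypes and an unadjusted limma p above 0.05. *Nfia*, for a transcription factor that starts glial differentiation, had a log2 fold change of -0.40, which did not pass, from a mean of 2780.1 ± 312 to 2111 ± 324 (SD) without overlap of the genotypes. The 12 genes of radial glia had a median of -0.06, with *Pax6* at -0.15 and *Sox2* at -0.05. The 18 genes of GABAergic interneurons had a median of -0.11, with *Gad1* at 0.07 and *Dlx1* at -0.12. Oligodendrocyte and microglia lists of 10 genes each had medians of 0.02 and -0.02, and 12 of 13 genes of endothelium and pericytes were below 0 with a median of -0.13. Over all tested genes the median was 0.0004.

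Several tissues that surround or adjoin the forebrain varied widely between embryos of a genotype. Choroid plexus genes had a median of -0.65, with *Ttr*, for the carrier transthyretin, at -1.95, and their sums were 7081 to 27246 in the heterozygous and 1827 to 21688 in the homozygous embryos. The 7 erythroid genes were all below 0 with a median of -0.40, and their sums were 30336 to 83264 and 28823 to 57209. The globin genes among them are near-identical copies whose single values are uncertain. Thalamus genes had a median of -0.04 and the 14 *Hox* genes that were tested one of -0.10. Of the pineal gland and retina list, *Tph1*, for the first enzyme of serotonin synthesis in the pineal gland, was at -1.53 with overlap and did not pass. In the activin pathway, *Fst*, for an activin antagonist, and *Acvr1c*, for a receptor, were both at 0.48 with overlap and did not pass, and the list of 9 genes had a median of 0.08. The 5 genes that the study names for a difference between heterozygous and WT embryos (*Crx*, *Ilk*, *Lmbrd1*, *Lypd6*, and *Pde3b*) had log2 fold changes of -0.77, -0.08, 0.05, -0.20, and 0.01 here, and none of them passed. *Crx* had 40.5 and 43.8 normalized read counts in heterozygous embryos 2 and 3, 7.31 to 10.4 in the other 3, and 6.70 to 11.9 in the homozygous embryos, and its log2 fold change was -0.46 without heterozygous embryo 2 and -0.43 without heterozygous embryo 3.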
